A study of Mus musculus with 12 samples.

Results

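To find what loss of caspase-1 changes in polycystic kidneys, transcripts of kidney tissue were compared between RC/RC:Casp1KO and RC/RC mice. These are 8 of the 12 libraries of the series, chosen by genotype, with 4 mice in each group. All mice were 6-month-old C57BL/6J animals, and by the study's methods each group held 2 females and 2 males. Both groups are homozygous for the Pkd1 R3277C knock-in allele, a hypomorphic form of polycystin-1 that gives a slowly progressive cystic disease. The RC/RC:Casp1KO mice are in addition homozygous for Del3, a germline TALEN-made deletion in Casp1 that was bred from a single line and is therefore present in every cell type. The other 4 libraries are from WT mice without either allele, and their levels are given beside the results. Because the columns of the deposited table carry mouse numbers that GEO's labels do not, a mouse is tied here to its genotype but not to its labelled replicate or sex.

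Caspase-1 is the protease at the end of the inflammasome pathway. Sensors such as NLRP3 and NLRC4 recruit the adaptor ASC (gene Pycard) and pro-caspase-1, which then cleaves the precursors of IL-1β and IL-18 and the pore-former gasdermin D. In kidney this machinery is best known from resident macrophages and dendritic cells, and from tubule epithelium under stress. Around growing cysts the tissue also gains myofibroblasts, extracellular matrix and epithelium that carries injury markers such as keratins, annexins and S100 proteins.

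The TALEN pair was designed against the end of Casp1 exon 6, and the site is printed because it shows which region was targeted. The exact bases removed are not analysed here. Decoding the repeat residues of both arms and searching the GRCm39 genome gave 1 match, chr9:5303749-5303793 on the plus strand, of which 26 bases are coding exon and 19 are the start of the next intron. Capitals mark the exon bases in the first line and the 15 bases between the arms in the second.
exon end of the Casp1 target: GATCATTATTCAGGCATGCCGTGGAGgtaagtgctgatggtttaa
gap between the Casp1 TALEN arms: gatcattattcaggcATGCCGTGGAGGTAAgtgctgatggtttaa
The codon for the active-site cysteine lies at this exon end and the splice donor, the gt that opens the lower-case run of the first line, follows it. Exons 5′ and 3′ of the deletion remain in the genome of the knockout, so reads from the rest of Casp1 can still be counted and the gene's level is a measure of its RNA, not of the deletion itself.

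Sequencing gave 18019819 to 24284831 reads counted to genes in the RC/RC mice and 18738755 to 24869454 in the RC/RC:Casp1KO mice. Levels are given as CPM, read counts as a share of the library's reads scaled by TMM factors, in the order RC105, RC139, RC140, RC143 for RC/RC and Del3_60, Del3_105, Del3_42, Del3_70 for RC/RC:Casp1KO. Fold changes are log2 values of RC/RC:Casp1KO over RC/RC with their SE, and a gene was called where the p-value of edgeR's quasi-likelihood test, adjusted by the Benjamini-Hochberg method over all genes tested, was under 0.05. Casp1 had 87, 73, 79 and 61 reads in the RC/RC mice, or 3.37, 3.84, 4.26 and 2.62 CPM. It had 10, 14, 12 and 23 reads in the RC/RC:Casp1KO mice, or 0.385, 0.664, 0.665 and 1.05 CPM. The groups were far apart, and Casp1 fell by 2.35 ± 0.32 on the log2 scale (edgeR, adjusted p = 0.00514), a call that held under every alternative fit and whichever mouse was left out. The WT mice, with 2.06, 1.29, 1.298 and 1.41 CPM, lay between the groups. The neighbouring caspase genes, 2 in number within 500000 bp of Casp1 and tested, were not called: Casp4, the caspase-11 gene, had a log2 fold change of -0.09 (edgeR, adjusted p = 0.857) and Casp12 one of -0.98 (edgeR, adjusted p = 0.0752).

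Several properties of the libraries bear on all that follows. Xist, the RNA of the inactive X chromosome, was at 441 and 278 CPM in RC105 and RC139 and at 666 and 778 CPM in Del3_60 and Del3_105, and was under 1 CPM in the other 4 mice. Those 4 had the Y-linked Ddx3y at 55.5, 66.0, 69.4 and 69.3 CPM, so both groups divided evenly along these genes, as the sexes in the study's methods do. Kdm5d, Uty and Eif2s3y, also Y-linked, were above 10 CPM in the same 4 mice and under 1 CPM in the rest. The first surrogate variable of the counts separated the same pairs of mice. Single libraries also stood apart within a group. RC139 was high for fat and fibroblast genes, and Del3_70 for macrophage, T cell and immunoglobulin genes, as described with those groups. The WT mice split into B6_2 with B6_3, which carry Xist RNA, and B6_4 with B6_6, which carry Y-linked RNA, and this split recurs in the genes that rose.

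Of 35275 genes in the table, 15428 had enough reads to be tested, and 1797 were called, or 11.6% of those tested. Of these, 1116 were higher in RC/RC:Casp1KO (7.23%) and 681 lower (4.41%). In 1706 of the 1797 called genes all 4 mice of one group lay above all 4 of the other. That number follows in large part from the choice of called genes on these same values. Of all genes tested, 20.5% were apart in this way (11.3% higher and 9.18% lower). The median log2 fold change was -0.03 over all genes, 0.83 over those called higher and -0.82 over those called lower, and 438 rose and 246 fell by at least 2-fold. Scaling by library size alone in place of TMM gave 814 higher and 179 lower calls. Leaving out 1 mouse also moved the count, which was 2789 without RC105, 754 without RC139, 438 without RC140, 606 without Del3_60, 440 without Del3_105 and 810 without Del3_42, and stayed within 1.5 times of the count from all 8 mice without RC143 (1991) and without Del3_70 (1407). The genes called in all 8 of these fits numbered 360, of which 325 were higher and 35 lower in RC/RC:Casp1KO.

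**Figure D1:**
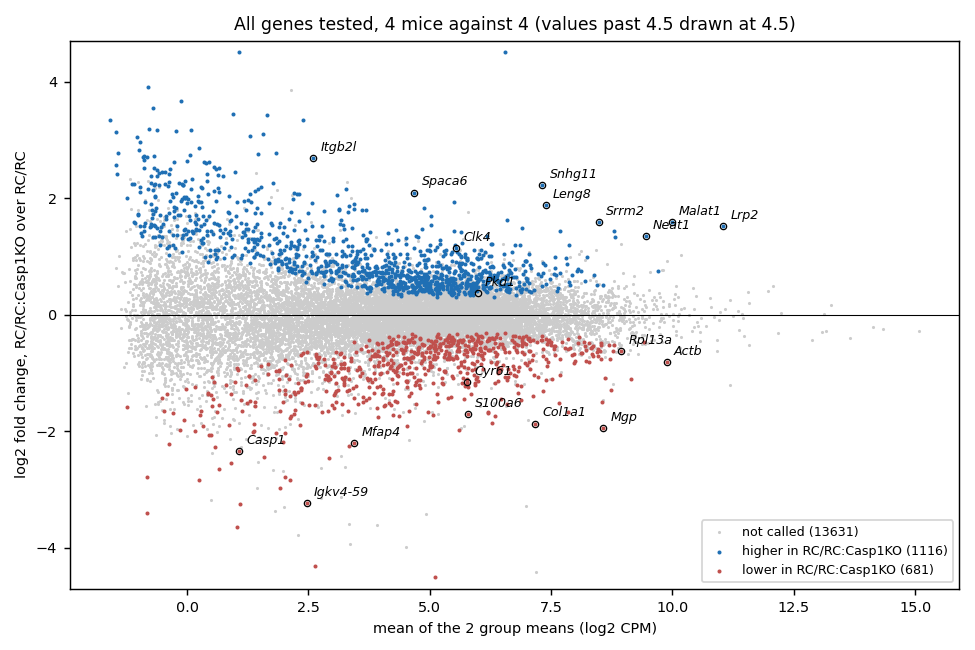
Each point is a gene, with the log2 of the mean of its 2 group means in CPM on the x axis and its log2 fold change of RC/RC:Casp1KO over RC/RC on the y axis, 4 mice in each group. Blue points are the 1116 genes called higher, red points the 681 called lower and grey points the rest. Lrp2 and Malat1 stand out among abundant genes on the higher side, and Mgp, Col1a1 and Actb on the lower side.

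Genes of the extracellular matrix and of the cells that make it were among those that fell in RC/RC:Casp1KO kidneys. Of 29 matrix proteins and proteases tested, 16 were lower and none was higher, with a median log2 fold change of -1.34, against 4.41% of all genes lower and a median of -0.03. Of 16 fibroblast and mural cell markers, 9 were lower (median -1.21) and only Cspg4, the pericyte proteoglycan NG2, was higher. In bulk kidney, fewer cells of a type and less RNA in each cell cannot be told apart. Col1a1, the main chain of type I collagen, was at 206, 375, 184 and 139.9 CPM in RC/RC and 34.0, 52.5, 34.7 and 126 CPM in RC/RC:Casp1KO mice. All RC/RC mice lay above the knockouts, closely so for RC143 and Del3_70, and the gene fell by 1.87 ± 0.47 on the log2 scale (edgeR, adjusted p = 0.0367). Mgp, the matrix Gla protein that inhibits calcification, was the most abundant of the 12 largest falls, at 435, 1061, 597 and 335 CPM in RC/RC and 131, 139, 77.6 and 282 CPM in RC/RC:Casp1KO, with RC139 highest and no overlap (-1.95 ± 0.45, edgeR, adjusted p = 0.0293). Decorin (Dcn), a small proteoglycan that binds collagen fibrils, gave 132, 264, 157 and 139 against 61.1, 73.8, 51.5 and 64.9 CPM. Its groups were apart, and its fall of 1.46 ± 0.23 on the log2 scale (edgeR, adjusted p = 0.0088) held whichever mouse was left out. Pdgfra, the platelet-derived growth factor receptor that defines the fibroblast list, was at 81.3 ± 25.1 and 49.4 ± 11.4 CPM (SD, n = 4) and was not called (edgeR, adjusted p = 0.0821).

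Other matrix genes among the largest falls were Mfap4, a microfibril protein (17.9 to 3.86 CPM, group means), Smoc2, a matricellular calcium-binding protein (122 to 33.5 CPM), Cpxm1, a secreted carboxypeptidase-like protein (23.6 to 6.998 CPM), and the collagen-binding proteoglycan lumican, Lum (6.76 to 2.03 CPM). Biglycan (Bgn), among the most abundant genes that fell, went from 602 to 245 CPM. The fibulin gene Fbln1 fell by 1.67 and the dermatopontin gene Dpt by 1.55 on the log2 scale. Among 20 collagens tested 6 were lower (30%, against 4.41% of all genes), namely Col1a1, Col1a2, Col3a1, Col6a1, Col6a2 and Col14a1, and 2 were higher (10%, against 7.23%). The pair that rose, Col4a3 (log2 fold change 1.00) and Col4a4 (0.75), encode chains of the mature glomerular basement membrane, and they were noticed after the values were seen. With the trend of fold change on gene length removed, 12 collagens were lower and 1 was higher. Of the transforming growth factor β ligands Tgfb1 fell from 52.4 to 23.3 CPM and Tgfb3 from 10.4 to 3.26 CPM, and the pathway's induced regulator Pmepa1 fell by 1.04 on the log2 scale, 3 lower of 17 tested (17.6%). The count of lower collagens was 3 without RC139, Del3_105 or Del3_42, 1 without RC140, 2 without Del3_60 and 11 without Del3_70. That of higher collagens was 3 without RC105, 1 without RC143 and 0 without RC139, RC140, Del3_60, Del3_105, Del3_42 or Del3_70. It was also 0 with library size alone. The transforming growth factor β count was 5 without RC105, RC143 or Del3_70 and 0 without RC140, Del3_60 or Del3_105.

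Acta2, Tagln and Des, genes of contractile cells, fell. Acta2, smooth muscle actin and the usual mark of a myofibroblast, was at 73.2, 198, 107 and 68.8 CPM in RC/RC and 38.9, 33.1, 35.8 and 33.2 CPM in RC/RC:Casp1KO (-1.67 ± 0.31, edgeR, adjusted p = 0.0158). RC139 stood highest, yet the lowest RC/RC mouse was still well above the highest knockout. Tagln, transgelin, went from 124 to 37.6 CPM, and desmin (Des) from 31.8 to 14.2 CPM. The summed level of the fibroblast and mural cell list was 868, 1692, 1022 and 721 CPM in the RC/RC mice and 474, 531, 418 and 541 CPM in the knockouts, without overlap, and 498, 429, 429 and 381 CPM in the WT mice. Fat cell markers moved with RC139: the adipocyte list summed to 71.9, 1935, 96.7 and 231 CPM in RC/RC and 57.02, 126, 98.0 and 40.6 CPM in RC/RC:Casp1KO mice, with Cfd its most abundant gene, and adiponectin (Adipoq), its best-known product, at 0.0388, 99.2, 0 and 11.6 and 0, 5.17, 3.99 and 0.136 CPM. None of the 7 fat markers tested was called by edgeR (median -3.13), 1 had an unadjusted p under 0.05 and DESeq2 called 0. Without RC139 the median log2 fold change of the matrix list was -0.99, that of the fibroblast list -0.68 and that of the fat markers -0.54. The counts of lower calls were sensitive to single mice: matrix 9 without RC139, 7 without RC140, 4 without Del3_60 or Del3_105 and 8 without Del3_42, and fibroblast 5 without RC139 or RC140, 3 without Del3_60 or Del3_105 and 4 without Del3_42. Of the called genes named in these 3 paragraphs, Dcn, Mfap4, Fbln1, Col6a2 and Tagln were called in all 8 fits without 1 mouse. The other called genes lost the call without at least 1.

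Cytoskeletal genes had the largest share of members lower among the lists with at least 10 tested. Of 34 actin and tubulin genes and their regulators, 21 were lower (61.8%, against 4.41% of all genes tested), none was higher and the median was -0.55. Actb, β-actin, was the most abundant gene of all that fell, at 990.0, 1530.1, 1354 and 936 CPM in RC/RC and 720.0, 679.8, 657 and 670.0 CPM in RC/RC:Casp1KO mice. The knockouts lay close together and below every RC/RC mouse (-0.82 ± 0.18, edgeR, adjusted p = 0.0264), although the call was lost when any 1 of RC139, RC140, Del3_60, Del3_105, Del3_42 or Del3_70 was left out. The tubulins Tubb6 (22.0 to 9.41 CPM) and Tuba1a (77.5 to 32.9 CPM) fell in every such fit, while Tpm4, a tropomyosin (-0.97), and Vasp, which promotes actin filament elongation (-0.59), lost the call without at least 1 mouse. With the gene length trend removed 13 were lower. The counts were 3 without RC139 or Del3_60, 2 without RC140, Del3_105 or Del3_42 and 10 without Del3_70.

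Tubular injury markers were lower in part. Of 30 tested, 11 were lower (36.7%, against 4.41% of all genes tested) and 29 had a negative fold change (median -1.02). S100a6, calcyclin, an S100 protein of dividing and injured epithelium, gave 60.7, 133, 97.6 and 45.1 CPM in RC/RC and 24.0, 27.8, 19.3 and 31.9 CPM in RC/RC:Casp1KO (-1.70 ± 0.32, edgeR, adjusted p = 0.0155), with RC139 and RC140 highest and all RC/RC mice above the knockouts. Tnfrsf12a, the TWEAK receptor, fell from 39.1 ± 8.97 (SD, n = 4) to 16.4 ± 3.52 CPM, S100a11 from 191 to 93.1 CPM and annexin A3 (Anxa3) from 31.3 to 17.8 CPM. The most used clinical markers of the list did not pass the test: Havcr1, kidney injury molecule 1, had a log2 fold change of -1.71 (edgeR, adjusted p = 0.0856) and Lcn2, lipocalin 2, one of -1.91 (edgeR, adjusted p = 0.104). Lcn2 was at 104, 106, 70.7 and 49.6 CPM in RC/RC and 8.16, 12.7, 4.65 and 62.1 CPM in RC/RC:Casp1KO mice, with Del3_70 above RC143. Lower calls in this list numbered 4 without RC139 or Del3_42 and 2 without RC140, Del3_60 or Del3_105.

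Of 29 immediate early and AP-1 genes 12 were lower (41.4%, against 4.41% of all genes tested) and none higher (median -0.73). Atf3, a stress-induced bZIP factor, was at 5.35, 9.78, 7.88 and 7.77 CPM in RC/RC and 2.81, 3.23, 1.61 and 3.14 CPM in RC/RC:Casp1KO, without overlap (-1.51 ± 0.27, edgeR, adjusted p = 0.0139). Maff, a small Maf protein, fell by 1.54 and the serum-response gene Ier5 by 1.01 on the log2 scale, and the growth-restraining Btg2 by 0.73. Fos itself was not called (-0.62, edgeR, adjusted p = 0.35). Of 28 genes of the Hippo effector YAP and its targets 5 were lower (17.9%). Cyr61 is a secreted matricellular protein and a standard YAP target. It had the lowest p-value among protein-coding genes called lower without overlap and with at least 5 CPM. Its levels were 80.9, 67.5, 80.7 and 71.0 CPM in RC/RC and 33.7, 32.9, 25.9 and 41.98 CPM in RC/RC:Casp1KO (-1.16 ± 0.14, edgeR, adjusted p = 0.0034), the spread within each group being small against the gap. Ctgf went from 164 to 70.5 CPM and Ankrd1, a nuclear ankyrin-repeat target, from 11.4 to 3.60 CPM, whereas Yap1 itself was at 99.4 ± 6.93 and 91.9 ± 6.40 CPM (SD, n = 4; edgeR, adjusted p = 0.443). Myc was at 12.2, 19.5, 19.6 and 11.3 CPM in RC/RC and 7.31, 8.06, 4.49 and 6.82 CPM in RC/RC:Casp1KO (-1.23 ± 0.25, edgeR, adjusted p = 0.0191), a call lost when either RC139 or RC140 was left out, and it was the only member called among 37 genes of the Myc network and ribosome biogenesis (2.70%, below the share of all genes, median -0.25). The count of that list was 9 without RC105 and 0 without RC139 or RC140, and DESeq2 called 6. Immediate early calls numbered 4 without RC139, 3 without RC140, 6 without Del3_60, 2 without Del3_105 and 7 without Del3_42, and YAP calls 2 without RC139 or Del3_60, 1 without RC140 or Del3_105 and 3 without Del3_42.

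Of 30 cell cycle genes 3 were lower (10%, against 4.41% of all genes tested), namely Pcna, the replication clamp, Stmn1, a microtubule destabiliser, and Cdk4, a cyclin-dependent kinase. All 30 had a negative fold change. Pcna was at 50.2, 54.9, 53.2 and 50.4 CPM in RC/RC and 32.1, 33.9, 25.6 and 33.4 CPM in RC/RC:Casp1KO, with no overlap (-0.74 ± 0.11, edgeR, adjusted p = 0.00691). Mki67, the proliferation marker, was at 10.3 ± 3.91 and 9.69 ± 4.64 CPM (SD, n = 4) and was not called (edgeR, adjusted p = 0.895). The processed copy Pcna-ps2, chosen after its values were seen, was at 0.155, 0.210, 0.162 and 0.0859 CPM in RC/RC and 3.73, 3.60, 5.87 and 3.04 CPM in RC/RC:Casp1KO, and reads may be assigned to either copy. Single mice moved the count to 1 without RC140 or Del3_105.

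**Figure D2:**
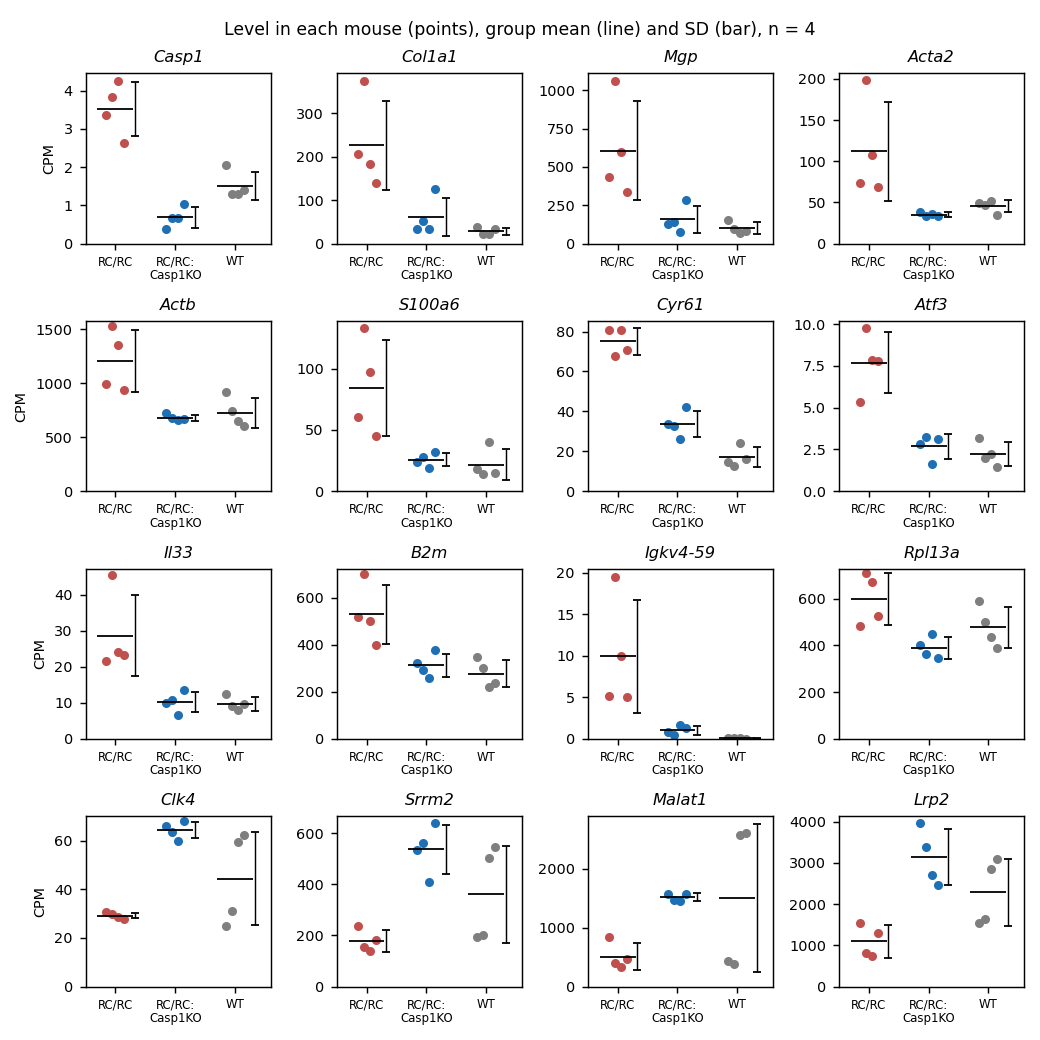
Points are single mice, with CPM on the y axis from 0 and RC/RC (red), RC/RC:Casp1KO (blue) and WT (grey) on the x axis, a line for the group mean and a bar for the SD of 4 mice. In each panel the RC/RC and RC/RC:Casp1KO mice do not overlap, and for Clk4, Srrm2, Malat1 and Lrp2 the WT mice fall into a low and a high pair.

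Within the inflammasome pathway, Casp1 and 2 other genes were called. Of 14 sensors, adaptors and proteases tested, these 3 passed the test, against 11.6% of all genes. They were Casp1, the adaptor Pycard, lower at 13.2, 16.6, 12.9 and 11.5 CPM in RC/RC against 8.85, 9.06, 6.81 and 9.86 CPM in RC/RC:Casp1KO (-0.65 ± 0.16, edgeR, adjusted p = 0.0369), and Nlrp6, a sensor of intestinal and renal epithelium, higher at 61.0, 41.4, 80.2 and 81.0 against 111, 114, 236 and 142 CPM (1.19 ± 0.29, edgeR, adjusted p = 0.0349). The Pycard call was lost without RC139, RC140, Del3_60, Del3_105 or Del3_42, and the Nlrp6 call without RC105, RC139, RC140, Del3_60, Del3_105, Del3_42 or Del3_70. Nlrp3, the most studied sensor, had a low level, at 2.25, 1.79, 0.755 and 1.37 and 0.923, 0.901, 0.831 and 1.54 CPM and was not called (edgeR, adjusted p = 0.326), nor was Gsdmd at 8.30 ± 1.18 and 7.84 ± 1.69 CPM (SD, n = 4; edgeR, adjusted p = 0.801). Of the caspase-1 substrates, Il1b was at 3.08 ± 0.971 and 2.95 ± 1.75 CPM and Il18 at 2.13 ± 0.526 and 1.48 ± 0.545 CPM (SD, n = 4), and neither was called (edgeR, adjusted p = 0.935 and 0.286). Il33, an epithelial and stromal alarmin of the IL-1 family, fell: it was at 21.6, 45.4, 24.2 and 23.4 CPM in RC/RC and 9.93, 10.7, 6.76 and 13.6 CPM in RC/RC:Casp1KO mice (-1.48 ± 0.28, edgeR, adjusted p = 0.0167), with RC139 far above the rest and the groups apart even so, though the call was lost without Del3_60 or Del3_105. Myd88, the adaptor of IL-1 and Toll-like receptors, fell by 0.56 and Nfkb2 by 0.65 on the log2 scale. This made 3 lower of 19 IL-1 family and priming genes (15.8%, against 4.41% of all genes). That count was 1 without RC139, RC140 or Del3_42, 0 without Del3_60 or Del3_105 and 10 without Del3_70.

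Of 15 MHC class I and immunoproteasome genes 6 were lower (against 4.41% of all genes, median -0.51), among them the light chain B2m, at 518, 699, 502 and 398 CPM in RC/RC and 322, 293, 259.8 and 375 CPM in RC/RC:Casp1KO (-0.76 ± 0.19, edgeR, adjusted p = 0.0361). RC143 and Del3_70 were nearest to each other, and no mouse crossed. The heavy chain H2-D1 (-0.62), the immunoproteasome subunit Psmb10 (-0.90) and the proteasome activators Psme1 (-0.62) and Psme2 (-0.53) fell with it. Of 25 chemokines 5 were lower (20%), among them Cx3cl1, fractalkine, at 231 against 106 CPM, and Cxcl14 at 144 against 49.6 CPM. Of 18 complement genes 6 were lower (33.3%), among them the C1 inhibitor gene Serping1 (230.0 to 93.2 CPM), and interferon-stimulated genes gave 2 of 25 (8%), Bst2 (-1.17) and Ifitm3 (-1.18). Counts without single mice were, for MHC class I, 0 without RC139, RC140, Del3_60, Del3_105 or Del3_42, for chemokines 1 without RC139, 0 without RC140, Del3_60 or Del3_105, 2 without Del3_42 and 14 without Del3_70, and for complement 1 without RC139 or Del3_42, 0 without RC140, Del3_60 or Del3_105 and 11 without Del3_70. The interferon count was 0 without RC139, RC140, Del3_60, Del3_105 or Del3_42 and 7 without RC143.

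Markers of the immune cells themselves were more variable. The macrophage list summed to 813, 764, 687 and 602 CPM in RC/RC and 415, 418, 352 and 756 CPM in RC/RC:Casp1KO, so Del3_70 lay within the RC/RC range and the other 3 knockouts below it. Of its 24 genes 4 were lower (16.7%, against 4.41% of all genes), namely Cd14, Spi1, C1qa and C1qb, and Lyz2 was the most abundant. The median was -0.73, with 20 negative fold changes. The defining marker F4/80, which the table holds under its older symbol Emr1 and the counts leave out, had 18.8 ± 3.90 and 12.6 ± 6.93 CPM (SD, n = 4) without a call (edgeR, adjusted p = 0.242). Csf1r, the receptor that maintains macrophages, was not called either (0.15, edgeR, adjusted p = 0.629). C1qa was at 78.3, 83.4, 73.0 and 59.4 CPM in RC/RC and 21.5, 25.5, 18.5 and 60.7 CPM in RC/RC:Casp1KO, where Del3_70 overlapped RC/RC. T cell markers summed to 47.8, 78.2, 51.8 and 30.7 and 22.3, 25.1, 25.3 and 56.3 CPM, with no edgeR call among 19 (median -0.82; 5 at an unadjusted p under 0.05, 0 by DESeq2), and the dendritic cell (9 tested), NK cell (3), neutrophil (3) and MHC class II (11) lists had no edgeR call, with medians of -0.50, -0.38, -0.25 and -0.32. DESeq2 called 2 dendritic cell genes and 1 of MHC class II. Without Del3_70 the dendritic cell, NK cell, neutrophil and MHC class II medians were -0.96, -0.85, -0.93 and -0.56. The NK cell median was -0.20 without RC139 and the neutrophil median -0.11 without RC140. The T cell median was -0.48 without RC139 and -1.28 without Del3_70. The immunoglobulin variable segments summed to 383, 573, 293 and 316 CPM in RC/RC and 111, 89.9, 143 and 299.9 CPM in RC/RC:Casp1KO, with Del3_70 within the RC/RC range, and to 14.02, 18.2, 18.8 and 5.15 CPM in WT. Of 95 segments tested 13 were lower (13.7%, against 4.41% of all genes) and no constant region gene was called by edgeR, and Igkv4-59, the segment with the lowest p-value, was at 5.20, 19.5, 9.98 and 5.07 and 0.770, 0.474, 1.66 and 1.36 CPM (-3.23 ± 0.55, edgeR, adjusted p = 0.0106). Each segment marks few plasma cell clones and shares sequence with its relatives, so reads of near-identical segments may be assigned to either. Igha, the most abundant gene of the B and plasma cell list, was at 564, 845, 541 and 482 and 158, 142, 220.3 and 548 CPM. In that list edgeR called Cd79b alone (1 of 13, or 7.69%, against 4.41% of all genes). The count was 2 without RC105, 0 without RC139, RC140, Del3_60, Del3_105 or Del3_42 and 5 without Del3_70, and DESeq2 called 7. Leaving out 1 mouse gave macrophage counts of 2 without RC105 or RC143, 0 without RC139, RC140, Del3_60 or Del3_105, 1 without Del3_42 and 16 without Del3_70 and segment counts of 4 without RC139, 3 without RC140 or Del3_42, 1 without Del3_60, 2 without Del3_105 and 22 without Del3_70. Without Del3_70 the T cell, dendritic cell and MHC class II lists each had 3 lower calls.

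**Figure D3:**
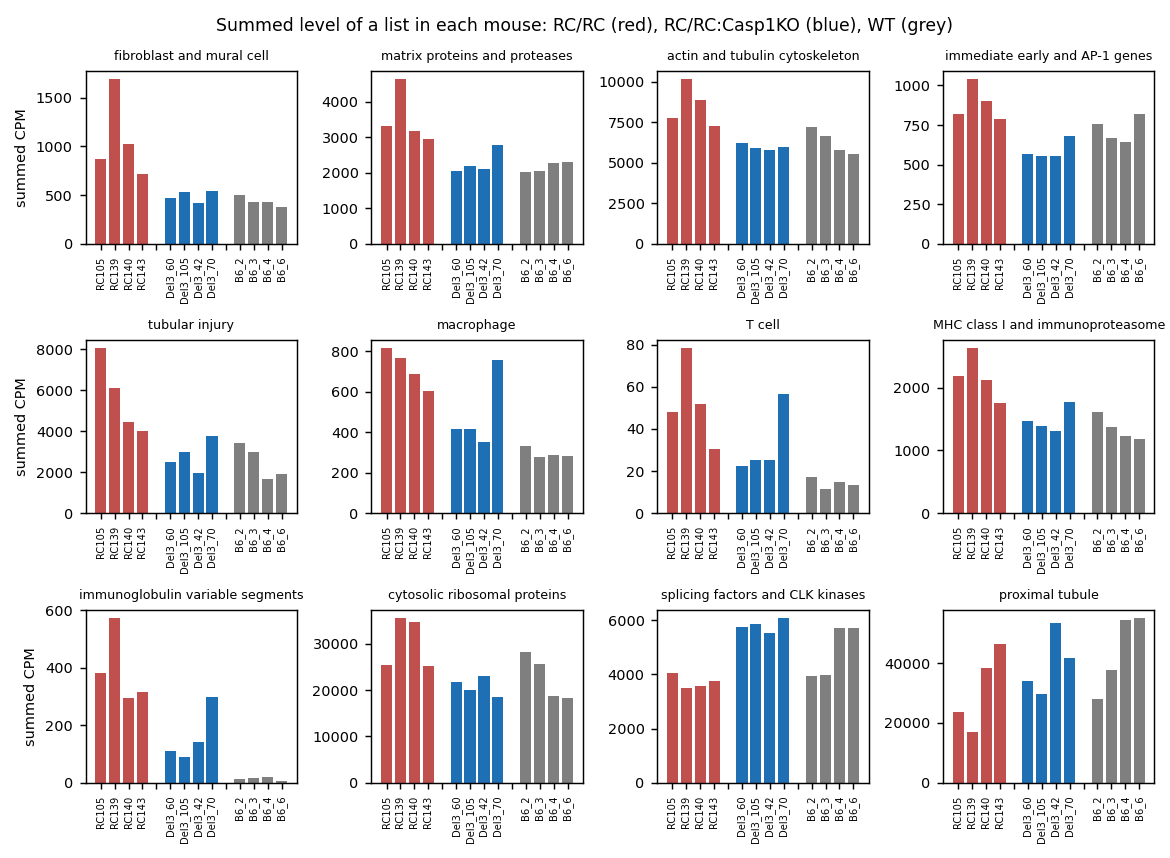
Bars are the summed CPM of all genes of a list in each mouse, on a y axis from 0, for 12 lists and the RC/RC (red), RC/RC:Casp1KO (blue) and WT (grey) mice. RC139 is highest in the fibroblast, matrix and T cell panels, Del3_70 stands above the other knockouts in the macrophage, T cell and immunoglobulin panels, and the splicing panel shows WT mice B6_4 and B6_6 level with the knockouts and B6_2 and B6_3 level with RC/RC.

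Of 88 cytosolic ribosomal protein genes 25 were lower (28.4%, against 4.41% of all genes) and 86 had a negative fold change, with a median of -0.54. Their summed level was 25373, 35559, 34789 and 25177 CPM in RC/RC and 21777, 19989, 22940 and 18610 CPM in RC/RC:Casp1KO, with RC139 and RC140 high and every RC/RC mouse above every knockout. Rpl13a, of the large subunit, was at 484, 711, 673 and 525 CPM in RC/RC and 403, 362, 448 and 346 CPM in RC/RC:Casp1KO (-0.62 ± 0.17, edgeR, adjusted p = 0.0446), and Rps27, of the small subunit, fell from 409 to 251 CPM. Translation factors gave 8 of 33 lower (24.2%, against 4.41% of all genes), including Eif1 (-0.53) and the elongation factor subunit Eef1b2 (-0.47). With the trend of fold change on gene length removed, 2 ribosomal protein genes and 1 translation factor were lower, with medians of -0.38 and -0.29 against -0.54 and -0.33 before. The ribosomal count was 72 without RC105, 0 without RC139, RC140, Del3_60, Del3_105, Del3_42 or Del3_70 and 49 without RC143, and that of translation factors 15 without RC105, 1 without RC139 or Del3_70 and 0 without RC140, Del3_60, Del3_105 or Del3_42. DESeq2 called 70 and 18 lower, and with 1 surrogate variable the counts were 50 and 14. The many processed copies of these genes can take or lend reads, so single ribosomal values are uncertain. Mitochondrial ribosomal proteins (3 lower of 76) and nuclear respiratory chain subunits (1 lower and 1 higher of 81) had few calls, although 75 and 72 had a negative fold change. These lower counts moved with single mice: 29 without RC105 and 0 without RC139, RC140, Del3_60, Del3_105, Del3_42 or Del3_70 for the first list and 17 without RC105 and 0 without RC139, RC140, Del3_60, Del3_105, Del3_42 or Del3_70 for the second. The 13 mitochondrially encoded protein genes took 8.68, 12.1, 11.6 and 9.37% of the counts in RC/RC and 7.78, 9.55, 10.4 and 8.58% in RC/RC:Casp1KO. The groups overlapped, with a difference of -1.37 percentage points (exact two-sided permutation test over 70 assignments, p = 0.257, n = 4 and 4).

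Nuclear RNA-processing genes were among those that rose. Of 34 splicing factors and CLK kinases 23 were higher, none was lower and the median was 0.54, against 7.23% of all genes higher. Clk4, a kinase that phosphorylates SR splicing factors, was at 30.5, 29.7, 28.6 and 27.9 CPM in RC/RC and 66.2, 63.5, 59.9 and 67.9 CPM in RC/RC:Casp1KO (1.14 ± 0.08, edgeR, adjusted p = 0.00115). Both groups were tight and far apart, and Pabpn1, the nuclear poly(A)-binding protein, had an equally low adjusted p (9.61 to 25.5 CPM, edgeR, adjusted p = 0.00115). Srrm2, a scaffold of nuclear speckles, gave 238, 156, 139.9 and 183 and 533, 562, 408 and 641 CPM (1.58 ± 0.20, edgeR, adjusted p = 0.00358), again without overlap. Pnisr, an SR-related protein, rose from 47.1 to 145 CPM, Clk1 from 60.3 to 124 CPM, Srsf11 from 87.7 to 165 CPM, pinin (Pnn) from 43.5 to 84.1 CPM and the deadenylase Pan2 from 19.6 to 39.7 CPM. Ddx5, an RNA helicase, rose from 625 to 1048 CPM, a call lost without RC140 or Del3_105. With the gene length trend removed 21 of the list were higher, and scaling by library size alone left 19. Without single mice the count was 13 without RC140, 15 without Del3_60 and 14 without Del3_105.

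A larger share of noncoding than of protein-coding genes was higher. Of 361 lincRNA genes tested 83 were higher and none lower, of 247 antisense genes 63 and none, and of 215 processed transcripts 59 and 1, or 22.99%, 25.5% and 27.4% higher. Protein-coding genes gave 877 higher and 664 lower of 14204, or 6.17% and 4.67%. Malat1, an abundant RNA of nuclear speckles, was at 834, 393, 339.9 and 468 CPM in RC/RC and 1572, 1472, 1446 and 1577 CPM in RC/RC:Casp1KO (1.58 ± 0.26, edgeR, adjusted p = 0.00961). The knockouts were tightly grouped, at about 3 times the RC/RC mean. Neat1, the RNA scaffold of paraspeckles, gave 442, 419.6, 312 and 409 and 852, 1039, 1003 and 1123 CPM (1.34 ± 0.16, edgeR, adjusted p = 0.00304). Among other nuclear RNAs, picked after their values were seen, Kcnq1ot1, which silences an imprinted cluster, rose from 2.58 to 8.64 CPM and Firre from 11.9 to 28.9 CPM. Whether reads were counted by strand is not given in the sources used here, so reads of an antisense gene and of its partner cannot be told apart. With the gene length trend removed, 85 lincRNA, 66 antisense and 64 processed transcript genes were higher. These types took 1.70, 1.35, 1.17 and 1.06% of all reads, sense-intronic genes included, in RC/RC, and 1.44, 1.37, 1.43 and 1.47% in RC/RC:Casp1KO. These shares overlapped, with RC105 highest.

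In these genes the WT mice fell into 2 pairs. Clk4 was at 24.9, 30.9, 59.5 and 62.2 CPM, Srrm2 at 195, 199.7, 503 and 547 CPM and Malat1 at 433, 384, 2580.3 and 2617 CPM in B6_2, B6_3, B6_4 and B6_6. The first pair lay near RC/RC for these genes. The second pair lay near RC/RC:Casp1KO for Clk4 and Srrm2 and above every knockout for Malat1 (1446 to 1577 CPM), although all 4 mice share 1 genotype. Of the 1116 genes called higher, B6_2 reached the range of the knockouts in 8.24% and B6_3 in 10.04%, against 68.3% in B6_4 and 72.8% in B6_6. Of the 681 called lower the shares were 46.0%, 56.7%, 85.8% and 90.02%. Over the genes called higher, the median log2 distance from the RC/RC mean was 0.73, 0.79, 0.69 and 0.86 in the knockouts, 0.20, -0.10, -0.12 and 0.01 in the RC/RC mice, and 0.08, 0.12, 0.68 and 0.71 in the WT mice. The knockout values follow from the choice of these genes, and the split among WT mice does not. The labels give no extraction or sequencing batch, so a batch and the genotype cannot be told apart.

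Fold changes were higher in longer genes. Tested genes were put in 5 equal bins by the gene length of the table. In the shortest bin (78 to 1655 bp) the median log2 fold change was -0.26, with 148 higher and 237 lower. In the longest bin (4844 to 106824 bp) it was 0.19, with 389 higher and 40 lower. Per mouse, the median deviation of the longest bin less that of the shortest, each from the mean of the 8 mice, was 0.11, -0.39, -0.48 and -0.10 on the log2 scale in RC/RC and 0.21, 0.27, 0.03 and 0.32 in RC/RC:Casp1KO. RC105 lay within the knockout range and the other 3 RC/RC mice below it (difference of means 0.42, exact two-sided permutation test over 70 assignments, p = 0.0571, n = 4 and 4). The cause of this trend was not tested. Chromatin regulators, which have long transcripts, gave 14 higher of 35 (40%, against 7.23% of all genes), all 35 with a positive fold change, and 6 with the trend removed. Kmt2d, a histone H3 lysine methyltransferase of enhancers, rose from 69.9 ± 9.83 to 161 ± 30.6 CPM (SD, n = 4; edgeR, adjusted p = 0.0041), its relative Kmt2a from 56.1 to 100.1 CPM, the acetyltransferase scaffold Trrap from 54.4 to 95.9 CPM and the remodeller Chd6 from 41.2 to 67.7 CPM. The count was 7 without RC139, 4 without RC140, 8 without Del3_60, 6 without Del3_105 and 9 without Del3_70. Numbered zinc finger genes gave 23 higher and 2 lower of 306 (7.52% higher, against 7.23% of all genes), among them Zfp692 (1.09) and Zfp579 (1.04). The higher count was 36 without RC105, 9 without RC139, 6 without RC140, 11 without Del3_60, 7 without Del3_105, 13 without Del3_42 and 12 without Del3_70.

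**Figure D4:**
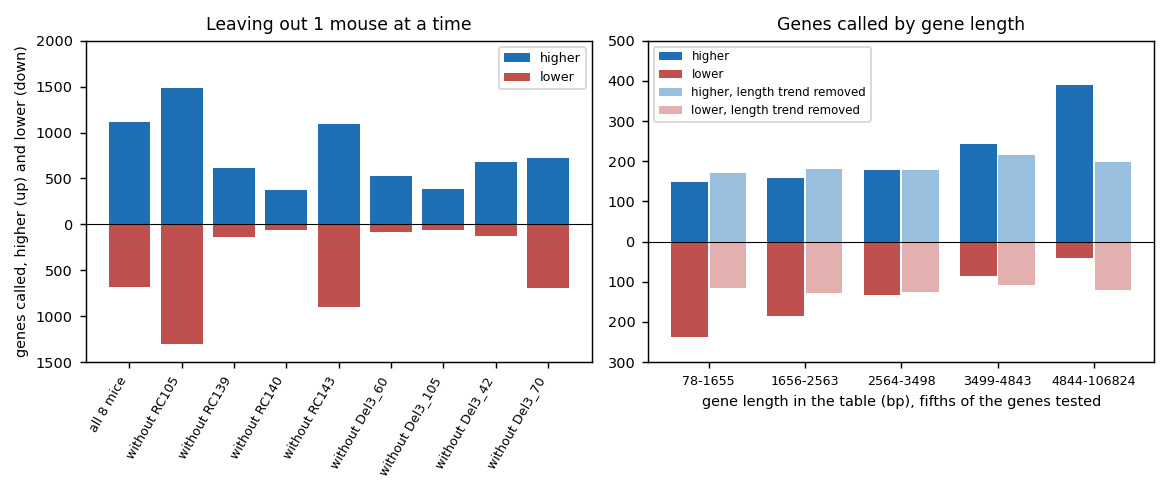
The left panel gives the number of genes called (y axis, higher above and lower below 0) with all 8 mice and without each mouse in turn, from 1797 calls with all to 438 without RC140. The right panel gives calls in 5 equal bins of the tested genes by gene length in bp, as fitted (dark) and with the length trend removed (pale): higher calls go from 148 to 389 as fitted and from 172 to 198 without the trend.

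Few kidney tubule genes were called in the proximal, distal and intercalated lists, and those called were all higher. Of 34 proximal tubule markers 4 were higher (11.8%, against 7.23% of all genes), with a median of 0.26. With 1 mouse left out that median went from 0.09 (without Del3_42) to 0.50 (without RC143). Lrp2, megalin, the endocytic receptor of the proximal brush border, was the most abundant gene that rose, at 1541, 802, 733 and 1307 CPM in RC/RC and 3972, 3394, 2712 and 2464 CPM in RC/RC:Casp1KO (1.52 ± 0.28, edgeR, adjusted p = 0.0144), and its partner cubilin (Cubn) gave 354, 187, 186 and 298 and 818, 699.7, 536 and 536 CPM (1.34 ± 0.25, edgeR, adjusted p = 0.0146). Neither overlapped between the groups, both held in all 8 fits without 1 mouse, and both belong to the longest bin of genes by length, described above. The phosphate carrier Slc34a3 rose from 56.4 to 80.3 CPM. In the same cells Aqp1 (0.00), Hnf4a (0.01) and Slc34a1 (0.49) were not called (edgeR, adjusted p = 0.99, 0.982 and 0.349). Slc12a3, the thiazide-sensitive cotransporter of the distal convoluted tubule, was at 389.6, 145, 145 and 286 CPM in RC/RC and 903, 792, 329 and 586 CPM in RC/RC:Casp1KO (1.44 ± 0.39, edgeR, adjusted p = 0.0454). Its groups overlapped and the call was lost without RC139, RC140, RC143, Del3_60, Del3_105 or Del3_70. The kinase that regulates it, Wnk4, rose by 0.66. This made 2 higher of 21 in the thick limb and distal tubule list (9.52%, against 7.23% of all genes). The median of that list was 0.32, with 6 negative fold changes, and Umod, uromodulin, was not called (0.20, edgeR, adjusted p = 0.59). Intercalated cells gave Insrr (21.6 to 52.7 CPM), the insulin-receptor-related alkali sensor, and Slc4a9 (51.1 to 103 CPM), 2 of 12 (16.7%, against 7.23% of all genes). Of these 12, 6 had a negative and 6 a positive fold change, with a median of 0.03. The Slc4a9 groups overlapped and its call was lost without RC139, RC140, Del3_60, Del3_105 or Del3_70. The intercalated count was 1 without RC139, RC140, Del3_60, Del3_105 or Del3_70. Calls in the proximal list numbered 7 without RC143, and in the thick limb and distal list 6 without RC105, 0 without RC139, RC140, Del3_60 or Del3_105 and 1 without Del3_70. Principal cell and podocyte lists had no call in the main fit. Endothelium had 2 lower of 15 (13.3%, against 4.41% of all genes), Sox18 (-1.21) and Plvap (-0.80), with 14 negative fold changes. The endothelial count was 4 without RC105, 1 without RC139, Del3_42 or Del3_70, 0 without RC140, Del3_60 or Del3_105 and 6 without RC143, and DESeq2 and the fit with 1 surrogate variable each called 6.

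Genes of polycystic disease and cyst secretion were not among the calls: none of 18 passed in edgeR, with a median of 0.08, while 5 had an unadjusted p under 0.05 and DESeq2 called 4. Pkd1, whose knock-in allele all 8 mice carry, was at 59.7, 67.0, 46.7 and 48.0 CPM in RC/RC and 73.0, 70.2, 56.3 and 86.1 CPM in RC/RC:Casp1KO, which overlapped (0.37 ± 0.16, edgeR, adjusted p = 0.143). With the gene length trend removed its log2 fold change was -0.078. Pkd2 had a log2 fold change of 0.31 and Cftr, the chloride channel of cyst secretion, one of 0.19 (edgeR, adjusted p = 0.171 and 0.743). Glycolysis (15 tested), cholesterol synthesis (18) and antioxidant genes (19) had no edgeR call, and DESeq2 called 1 gene in each. Chaperones had 1 lower of 30, Xbp1, with 27 negative fold changes. The chaperone count was 15 without RC105 and 0 without RC139, RC140, Del3_60, Del3_105, Del3_42 or Del3_70. Fatty acid oxidation had 1 higher of 22, its regulator Ppara (47.7 to 75.6 CPM), the clock 1 of 18, Per3 (0.97), intraflagellar transport 2 of 32, Ift172 and Dync2h1, and the proteasome core 1 lower of 34, Psmb2, with 31 negative fold changes. These shares (4.55%, 5.56% and 6.25% higher, and 2.94% lower) lie below those of all genes tested (7.23% higher, 4.41% lower). The proteasome count was 12 without RC105 and 0 without RC139, RC140, RC143, Del3_60, Del3_105, Del3_42 or Del3_70, and that of intraflagellar transport 6 without RC105, 0 without RC139, RC140, Del3_60 or Del3_105 and 1 without Del3_42 or Del3_70. The Ppara call was lost without RC140, Del3_60, Del3_105, Del3_42 or Del3_70, and the Per3 call without RC139, RC140, Del3_60 or Del3_105. No red cell, urothelial or mitochondrially encoded gene was called by edgeR, of 5, 8 and 12 tested, and DESeq2 called 1 red cell gene. Of skeletal muscle markers 2 of 7 were abundant enough to be tested, with desmin lower. Of adrenal markers 1 of 7 was, namely Star. Star was not called in the main fit but was higher with 1 surrogate variable, and DESeq2 called 1 adrenal marker. Over all 16 lists without an edgeR call, which hold 167 genes tested, 28 had an unadjusted p under 0.05 and DESeq2 called 12.

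Scaling by library size alone, which moved the median of all genes from -0.03 to 0.02, left the medians of the following lists with their sign and fewer of their members called. Lower calls under it numbered 8 for matrix, 5 for fibroblasts, 6 for the cytoskeleton, 3 for tubular injury, 6 for immediate early genes and 7 for antibody segments. They were 1 for complement, 4 for chemokines and 0 for each of MHC class I, macrophage, interferon, ribosomal and translation lists. Higher calls were 8 for chromatin regulators. Calls also differed under DESeq2 and with 1 surrogate variable. Lower calls numbered 19 and 17 for tubular injury, 11 and 11 for chemokines, 9 and 9 for complement, 13 and 8 for collagens, 22 and 18 for matrix, 9 and 6 for macrophages and 28 and 18 for antibody segments, by DESeq2 and with the surrogate variable in turn. The chaperones had 6 and 5 lower calls, the proteasome core 4 and 4 and mitochondrial ribosomal proteins 7 and 5, and intraflagellar transport had 6 and 5 higher. Lower calls were 8 and 4 for IL-1 family genes, 5 and 5 for transforming growth factor β, 5 and 4 for interferon-stimulated genes, 9 and 7 for YAP targets, 18 and 13 for immediate early genes and 7 and 6 for the cell cycle. Higher calls were 8 and 7 for the proximal tubule, 6 and 3 for the distal list and 3 and 2 for the polycystic list.

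**Figure D5:**
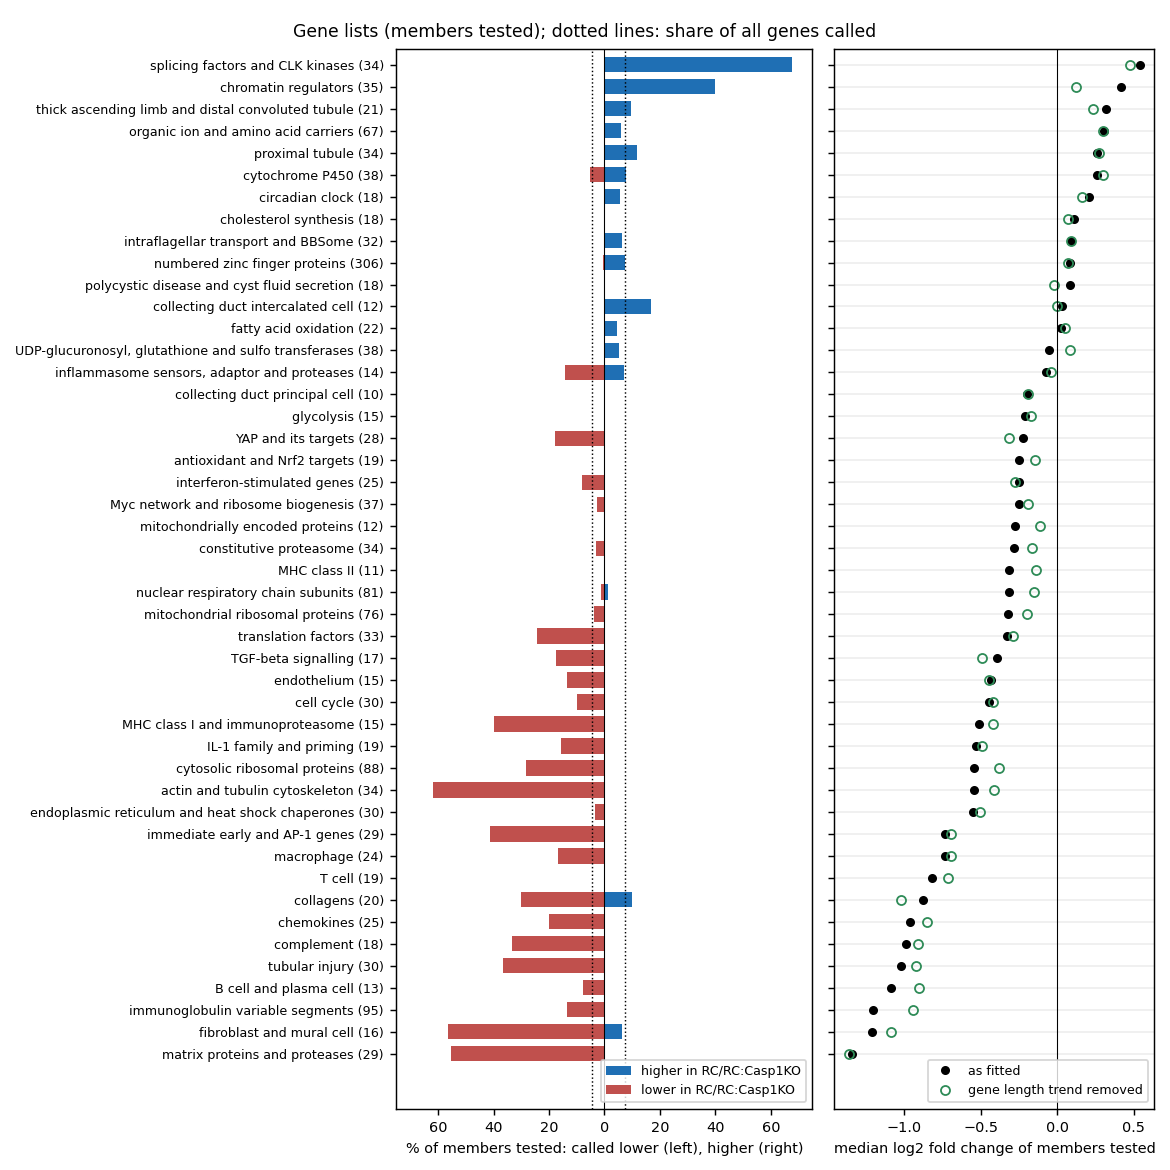
Each row is a gene list with at least 10 members tested (number in brackets). The left panel gives the percent of members called lower (red, to the left) and higher (blue, to the right) with dotted lines at the 4.41% and 7.23% of all genes, and the right panel the median log2 fold change as fitted (black) and with the gene length trend removed (green ring): cytoskeleton, fibroblast and matrix lists are lowest by share and splicing factors highest.

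The largest single rise was in Ugt2b38, a UDP-glucuronosyltransferase of steroid and xenobiotic conjugation. It had 0 reads in all 4 RC/RC mice and 752, 1365, 7102 and 5829 reads in the RC/RC:Casp1KO mice, at least 179-fold higher in the lowest knockout than the level that 3 reads in an RC/RC library would give (edgeR, adjusted p = 0.00877). The WT mice had 2368, 2020, 15806 and 14021 reads. So the RC/RC mice were the ones without this RNA, and the Y-bearing mice of the other genotypes had more of it than the Xist-bearing ones. Of 38 conjugating transferases tested, 2 were higher (5.26%, against 7.23% of all genes), Ugt2b38 and Ugt1a6a (log2 fold change 2.75), and the count was 4 without RC105 or RC143 and 1 without Del3_60 or Del3_105. None of the 3 other Ugt2b genes tested was called, and because the family is closely related, reads may be shared among its members. Other large rises among genes above 5 CPM were Itgb2l, an integrin β2-like gene (2.71, 0.789, 1.08 and 1.89 to 8.97, 10.8, 10.6 and 11.8 CPM by mouse), R3hdml (0.893 to 6.21 CPM), Stbd1, which tethers glycogen to membranes (1.87 to 7.95 CPM), and Mfsd2b, a sphingosine-1-phosphate exporter of blood cells (1.34 to 5.11 CPM).

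The other large rises came from genes with varied roles. Snhg11, a snoRNA host gene that the table lists as protein coding, was at 95.0, 45.5, 33.6 and 52.1 CPM in RC/RC and 309, 371, 154 and 215 CPM in RC/RC:Casp1KO (2.22 ± 0.36, edgeR, adjusted p = 0.00918). Every knockout was above every RC/RC mouse. Leng8 rose from 71.8 to 264 CPM, Spaca6, a sperm membrane protein of gamete fusion, from 9.75 ± 2.37 to 41.6 ± 5.78 CPM (SD, n = 4), Kcnt1, a sodium-activated potassium channel, from 12.9 to 45.9 CPM, Xrcc3, a DNA repair gene, from 3.85 to 13.6 CPM, Mroh7 from 5.69 to 19.95 CPM and Wdfy1, an endosomal FYVE protein, from 15.4 to 49.7 CPM. Mat2a, which makes S-adenosylmethionine and was among the most abundant higher genes, rose from 310.4 to 444 CPM and lost its call without 7 of the 8 mice in turn. Among carriers 4 of 67 were higher (5.97%, against 7.23% of all genes), with Slc38a6 (1.26) and Slc38a9 (0.85), amino acid transporters, having the lowest p-values, and the count was 8 without RC105 and 11 by DESeq2. Cytochrome P450 genes gave 3 higher and 2 lower of 38 (7.89% and 5.26%, against 7.23% and 4.41% of all genes), with Cyp1a1 lower (-1.56) and Cyp2j9 higher (1.00). Their higher count was 1 without RC140, and their lower count 0 without RC139, RC140 or Del3_105 and 1 without Del3_60 or Del3_42. The remaining large falls outside the matrix were Nnmt, nicotinamide N-methyltransferase (5.70 to 1.38 CPM), Hspb1, the small heat shock protein 27 (77.2 to 19.6 CPM), Rtn4rl2, a Nogo receptor relative (6.49 to 1.58 CPM), Acsbg1, an acyl-CoA synthetase (6.69 to 1.96 CPM), and Tmem45a (7.94 to 2.12 CPM). Among falls with low p-values, Samd4, an RNA-binding repressor, Eif1a, an initiation factor, and Cstb, cystatin B, fell by 1.00, 0.64 and 0.68 on the log2 scale. Ctsd, the lysosomal protease cathepsin D, was among the most abundant lower genes and fell by 0.46 (edgeR, adjusted p = 0.0413). Its call was lost without RC139, RC140, Del3_60, Del3_105, Del3_42 or Del3_70. Of the genes in this paragraph and the last, Ugt2b38, Itgb2l, R3hdml, Stbd1, Mfsd2b, Snhg11, Leng8, Spaca6, Xrcc3, Mroh7, Wdfy1, Slc38a6, Slc38a9, Tmem45a, Samd4, Eif1a and Cstb were called in all 8 fits that left out 1 mouse.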

How the data were processed

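Total RNA of kidney tissue was extracted with TRIZOL, and poly(A) mRNA libraries were made and sequenced by Novogene. The study's methods describe quartered frozen kidneys and do not say which part was used for sequencing. The submitters' processing notes name CASAVA 1.8, STAR and the mm10 build, while the counting tool, annotation and strand setting are not given in the sources used here. The authors deposited 1 table of raw read counts per gene and mouse, FPKM per gene and mouse, and other columns with gene length and coordinates. The deposited group means, log2 fold changes and p-values were not used, and 0 columns were of unknown group. Mice were grouped by the genotype in the column names. Library sizes were 18019819 to 24869454 counted reads in the 8 mice.

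Counts were tested with edgeR 4.0.16 (limma 3.58.1, R 4.3.3): low counts were removed with filterByExpr, TMM factors were taken over the 8 libraries and the quasi-likelihood F test compared RC/RC:Casp1KO with RC/RC without covariates, with Benjamini-Hochberg adjustment over all genes tested and calls at an adjusted p under 0.05. Printed CPM values use TMM factors of all 12 libraries. Where a symbol had several rows, the row with more reads was used. Alternatives were DESeq2 1.42.0, other scalings and count minimums, dispersion from 12 mice, 1 surrogate variable (sva 3.50.0), FPKM computed from counts and gene lengths (pseudocount 1), and a loess (span 0.5) of each library's deviation on log gene length, used as an offset. Each mouse was also left out in turn. The code was tested on simulated data. No replicates were duplicates: pairs within a group differed by a chi-square per degree of freedom of 14.7 to 119. P-values measure the spread between these mice.

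Named genes were Casp1, Pkd1 and the sex-linked genes; among protein-coding calls without overlap and with at least 5 CPM, the 12 largest rises and falls and the 8 lowest p-values each way; the 8 most abundant calls each way; and up to 4 called members of each list. Not every named gene is described in the text, and some results are not reported here. The comparison, the gene lists and this rule were chosen with earlier results of these data known, and lists were described by counts and medians. The S6 kinases were taken out of the ribosomal list once its members were seen. The Casp1 site was located in GRCm39, whereas the table is in mm10 coordinates. Sex and replicate were not tied to columns. The values after ± are SE or SD and include the spread between mice, whereas the limit of 3 reads covers counting error only.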

Additional observations from a re-analysis of the deposited data

Results flagged for a closer look

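In 465 sets of 4 mice (each named gene, the counted reads and the mitochondrial share, in each genotype), 21 had a highest or lowest mouse whose gap to the nearest other mouse was, as a share of the whole range of the set, above Dixon's critical value for 4 samples, and chance gives about 1 in 20. In RC/RC, mouse RC139 was apart for Nnmt at 13.3 CPM against 2.66 to 3.56 in the others, Il33 at 45.4 CPM against 21.6 to 24.2 in the others and Dpt at 20.7 CPM against 8.52 to 9.11 in the others. The same mouse had Col14a1 at 124 CPM against 88.1 to 92.6 in the others and Cyp1a1 at 3.05 CPM against 2.09 to 2.19 in the others. RC139 is the mouse with the highest summed level of fat cell markers. Mouse RC105, also RC/RC, was apart for Xrcc3 at 4.77 CPM against 3.48 to 3.63 in the others, Clk1 at 74.2 CPM against 55.2 to 56.4 in the others and Cyp2j7 at 1.12 CPM against 0.421 to 0.515 in the others. The same mouse had Ighv13-2 at 9.19 CPM against 1.79 to 2.43 in the others. Among RC/RC:Casp1KO mice, Del3_70 was apart for C1qb at 60.2 CPM against 22.9 to 25.05 in the others, C1qa at 60.7 CPM against 18.5 to 25.5 in the others and Ccl12 at 0.954 CPM against 0.385 to 0.427 in the others. The same mouse had Kmt2d at 206 CPM against 139 to 149.7 in the others and Mrpl55 at 15.3 CPM against 19.2 to 19.6 in the others. Del3_70 is the knockout with the highest summed level of macrophage markers. Del3_60 was apart for Cdk4 at 61.6 CPM against 64.2 to 64.5 in the others. In WT, mouse B6_2 was apart for Casp1 at 2.06 CPM against 1.29 to 1.41 in the others, Tmem45a at 3.01 CPM against 1.63 to 1.78 in the others and Samd4 at 10.8 CPM against 7.68 to 7.90 in the others. The same mouse had Cox4i2 at 1.67 CPM against 0.609 to 0.749 in the others and Ighv2-9 at 0.0478 CPM against 0 in each of the others. B6_4 was apart for Cd79b at 1.85 CPM against 0.703 to 0.861 in the others. Counting error alone is large for Ighv2-9 in WT, where the level of B6_2 rests on a single read. The cause of these deviations was not tested.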

How the results depend on the processing

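Against 1797 calls (1116 higher, 681 lower) with all 8 mice, DESeq2 gave 3182 (1756 and 1426), library size alone 993 (814 and 179), limma on log2(FPKM + 1) 1052 (836 and 216) and 1 surrogate variable 2636 (1509 and 1127). The other 6 settings, namely RLE and upper-quartile factors, no or a stricter count minimum, dispersion from all 12 mice and the gene length trend removed, gave 1502 to 2014 calls. Higher calls took 62.1% of the total, 82.0% with library size alone and 79.5% with limma. Leaving out 1 mouse gave 438 to 2789 calls, 373 to 1489 higher and 58 to 1300 lower, and the cause of this spread was not tested. Casp1 was lower in every fit, by a log2 fold change of -1.19 (limma, FPKM scale) to -2.63, and without 1 mouse by -2.13 to -2.63. The mitochondrial share differed by -0.81 to -1.95 percentage points without 1 mouse, and restricting it to protein-coding genes gave the same genes and so the same -1.37. Of 152 named genes called, 55 were called in all 8 fits without 1 mouse, 80 in all 10 other settings and 51 in both, and no called gene changed sign. Pkd1, not called in any setting listed here, went from 0.37 to -0.078 with the gene length trend removed. Over the gene lists, counts in each direction moved by more than 1.5 times in 193 combinations of list, direction and setting and not in 907, and with 1 mouse left out in 258 and not in 622. No paired analysis was possible because the columns carry mouse numbers that do not match the replicate numbers of the labels. A block by sex, as read from Xist and Ddx3y levels, was not fitted. The surrogate variable separated the same mice as those levels, and its fit gave 2636 calls against 1797. Lower cytosolic ribosomal protein genes numbered 50 with it and 25 without. At this depth 3 reads equal 0.115 to 0.166 CPM in the 8 mice, and with 4 mice a group the exact permutation test cannot go below p = 0.0286.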

Other observations

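A few genes separated the genotypes almost completely, by a rule set after the values were seen: every mouse of 1 genotype at least 4-fold above, or below, every mouse of both others, with at least 1 CPM on the higher side. RC/RC:Casp1KO stood apart in this way for 1 gene, RC/RC for 1 and WT for 28, of which 25 were lower and 3 higher in WT. The RC/RC:Casp1KO gene was Pcna-ps2, a processed copy of Pcna on chromosome 19, at 0.155, 0.210, 0.162 and 0.0859 CPM in RC/RC, 3.73, 3.60, 5.87 and 3.04 CPM in RC/RC:Casp1KO and 0.144, 0.0957, 0.0499 and 0.141 CPM in WT mice (RC/RC:Casp1KO against RC/RC, edgeR, adjusted p = 0.00115). Pcna itself was at 41.6, 46.6, 37.7 and 32.2 CPM in the WT mice. The RC/RC gene was Ugt2b38 on chromosome 5, described above. Casp1 lies on chromosome 9, and the cause of the differences in both genes was not tested.

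In some of the genes in which WT stood apart, RC/RC and RC/RC:Casp1KO levels overlapped, and 2 examples follow. Ndufs5, a subunit of respiratory complex I, was at 6.44, 10.7, 7.39 and 6.40 CPM in RC/RC, 6.85, 5.79, 6.87 and 5.498 CPM in RC/RC:Casp1KO and 97.8, 92.7, 70.1 and 75.3 CPM in WT. St6galnac1, a sialyltransferase, was at 3.41, 5.84, 4.26 and 4.04 CPM in RC/RC and 4.62, 3.42, 2.88 and 6.36 CPM in RC/RC:Casp1KO, and had no read in any of the 4 WT mice. The cause of these differences was not tested.

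A gene outside the rule that also differed by genotype was Amd2, a copy of the S-adenosylmethionine decarboxylase gene Amd1. It was at 2.64, 2.37, 2.86 and 3.09 CPM in RC/RC, 0.770, 0.427, 0.222 and 0.273 CPM in RC/RC:Casp1KO and 0.383, 0.670, 0.200 and 0.609 CPM in WT mice, so RC/RC was high and the other genotypes low (RC/RC:Casp1KO against RC/RC, edgeR, adjusted p = 0.00544). Amd1 was at 60.04 ± 5.38 CPM in RC/RC and 57.2 ± 11.99 CPM in RC/RC:Casp1KO (SD, n = 4) and was not called (edgeR, adjusted p = 0.78). Near-identical copies such as these can share reads.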
